A study of Mus musculus with 18 samples.

Results

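Immediate early response genes were followed across 18 RNA-seq libraries of mouse prostate. The 10 members, chosen by name, were Fos, Fosb, Jun, Junb, Egr1, Atf3, Ier2, Nr4a1, Dusp1 and Zfp36, out of 55469 gene rows in each of the 4 deposited tables, and every one of them had reads in every library. Total RNA came from the ventral and lateral lobes of male mice, strain label C56NL/6N, with 3 mice in each of 6 groups. All of the mice were heterozygous for TRAMP, in which the probasin promoter drives viral T antigens in prostate epithelium, so the controls had this transgene too. WT-TRAMP mice had wild-type Elac2 and were 10 or 30 weeks old. KO-TRAMP mice of the same ages had lost Elac2 in the cells that express Pb-Cre, which are prostate epithelial cells, while other cell types kept the gene. A537T-TRAMP mice of the same ages were homozygous for the ELAC2 Ala537Thr change in the whole body. The question was whether either change in Elac2, the gene for the nuclease that trims the 3′ ends of precursor tRNAs, came with other levels of these genes at 10 or at 30 weeks.

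Immediate early genes are transcribed within minutes of a growth factor, stress or injury signal, without new protein synthesis, and their mRNAs are short-lived. ERK, JNK and p38 kinases switch them on through factors that already sit on their promoters, such as SRF with ELK proteins and CREB. Their products include the subunits of the AP-1 transcription factor and also proteins that end the response.

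The libraries held 9380174 to 14830104 reads, and the members had 6 to 515 reads each per library. The column headers name libraries by number only, and no number could be tied to a single mouse. At 10 weeks WT-TRAMP had numbers 1 to 3, the A537T-TRAMP mice 4 to 6 and the KO-TRAMP mice 7 to 9. At 30 weeks the numbers were 10 to 12, then 13 to 15 and 16 to 18 in the same order, and values below follow the order of the numbers. Each WT-TRAMP library occurs in both tables of its age, where its reads differed by 8.63% to 15.1% for Junb. They differed by up to 11.9% for Nr4a1, 11.1% for Fosb and 10.6% for Ier2, and by at most 1.87% for Zfp36. Elac2 itself gave normalized read counts of 254 to 301 in KO-TRAMP and 289 to 359 in WT-TRAMP at 10 weeks, and of 249 to 267 and 251 to 319.6 at 30 weeks, with adjusted p of 0.808 and 0.522 by limma, so that the groups were not separated by the gene-level count. The deletion takes out an exon, in epithelial cells only. Prostate epithelial markers were present in every library, at 0.275% to 3.50% of reads over 12 genes. Seminal vesicle genes took from 0.000106% to 9.05% of reads, although that gland was removed at dissection. In such bulk samples, fewer cells of a type and less RNA per cell cannot be told apart.

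All members are protein coding in the GENCODE annotation of GRCm38. Fos spans chr12:85473890-85477273 on the plus strand, Fosb chr7:19302696-19310051 on the minus strand, and Nr4a1 chr15:101254269-101274795 on the plus strand. Zfp36 spans chr7:28376784-28380253 on the minus strand. Jun, Junb, Zfp36 and Atf3 each overlap a gene on the opposite strand (Junos, Prdx2, Gm44710 and Gm24748). Dusp1 overlaps Gm8225 and Ergic1 on the opposite strand and a pseudogene and an intronic transcript on its own strand, so its reads are less certain. RefSeq promoters (GRCm38.p6) were at hand for 8 of the 10 members. The 150 bases before the RefSeq transcription start are shown for the 3 members that varied most between libraries and for Zfp36, which varied least. For Nr4a1 and Zfp36 these bases lie inside the GENCODE spans given above, and for Fosb they reach into its span. Capitals mark TGACG or its reverse complement, the core of the CREB and ATF binding site.

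Fos, chr12:85473740-85473889, plus strand: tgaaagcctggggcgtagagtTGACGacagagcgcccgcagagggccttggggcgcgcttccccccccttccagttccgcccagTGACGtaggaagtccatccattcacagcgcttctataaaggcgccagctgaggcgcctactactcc
Fosb, chr7:19310046-19310195, minus strand: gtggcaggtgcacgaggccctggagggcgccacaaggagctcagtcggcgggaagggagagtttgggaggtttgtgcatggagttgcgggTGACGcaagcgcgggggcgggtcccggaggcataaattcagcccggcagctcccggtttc
Nr4a1, chr15:101266696-101266845, plus strand: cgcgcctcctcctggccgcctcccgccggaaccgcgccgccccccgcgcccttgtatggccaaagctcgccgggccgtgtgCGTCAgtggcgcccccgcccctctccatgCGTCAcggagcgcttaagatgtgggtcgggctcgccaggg
Zfp36, chr7:28379229-28379378, minus strand: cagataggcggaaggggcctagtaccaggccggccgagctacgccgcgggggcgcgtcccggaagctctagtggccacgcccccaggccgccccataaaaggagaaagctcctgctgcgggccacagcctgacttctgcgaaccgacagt

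Over the 250 bases before the start, on either strand, TGACG occurred in 6 of the 8 promoters (Fos, Fosb, Junb, Atf3, Dusp1 and Nr4a1) and in 17.8% of all 32851 promoters in the table. The full palindrome TGACGTCA, which contains TGACG, was found in Dusp1 and in 1.55% of all promoters. The EGR motif GCGGGGGCG was found in Fosb, Nr4a1 and Zfp36 and in 2.57% of all promoters. A CArG box, the SRF site, was found in Zfp36 alone of the 8 and in 1.47% of all promoters, TATAAA in Fos alone and in 12.4%, and the AP-1 motif TGANTCA in none of the 8 and in 6.75%. A match describes the letters of this window and not binding.

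Ier2 had the highest level per length and Fosb the lowest. In RPKM (reads per kilobase of exon, scaled to the total of the library), the median over the 18 libraries was 9.68 for Ier2, a nuclear protein of unsettled function, and 8.14 and 7.70 for Junb and Jun, subunits of AP-1. Atf3, a stress-induced repressor, had 7.64, Zfp36, which binds AU-rich mRNA and speeds its decay, 5.60, and Egr1, a zinc-finger transcription factor, 4.88. Fos, the classical partner of Jun, had 3.54, Dusp1, a phosphatase that turns MAP kinases off, 2.03, Nr4a1, an orphan nuclear receptor, 1.91, and Fosb 0.332. Several neighbours in this order could not be separated, since Junb exceeded Jun in 10 of 18 libraries, Jun exceeded Atf3 in 8, Zfp36 exceeded Egr1 in 10 and Dusp1 exceeded Nr4a1 in 8. Atf3 was above Zfp36 and Nr4a1 above Fosb in all 18. The highest library was 20.0-fold above the lowest for Fosb, 9.49-fold for Nr4a1 and 8.86-fold for Fos, and only 1.71-fold for Zfp36. Jun, Junb, Atf3, Ier2, Dusp1 and Egr1 lay between, at 2.61-fold to 5.19-fold.

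**Figure D1:**
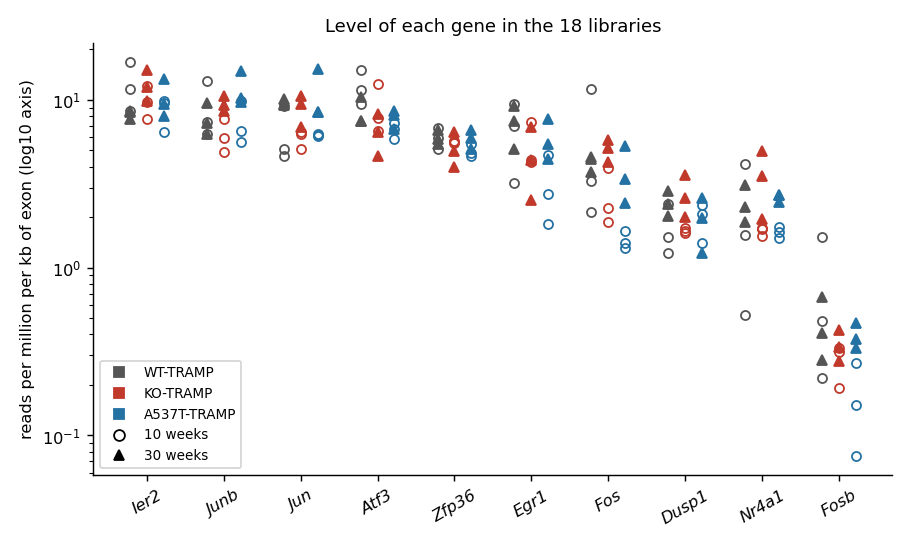
Level of each gene in RPKM, reads per kilobase of exon scaled to the library's total (y axis, log10) in each of the 18 libraries; colours mark the line, open circles 10 weeks and filled triangles 30 weeks, and genes are ordered by their median. Fosb lies lowest and Zfp36 is the tightest, with a 1.71-fold range.

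At 10 weeks, 9 of the 10 genes had lower means of log2 values in KO-TRAMP than in WT-TRAMP, but none passed the test. Here and below, higher and lower means are those of log2(normalized count + 1). Fos, in normalized read counts (reads divided by the size factor of the library), gave 57.7, 319.9 and 90.3 in the controls against 58.4, 49.9 and 102 in KO-TRAMP. Library 2 stood far above all others and the remaining WT-TRAMP values lay among those of KO-TRAMP. The difference of mean log2(normalized count + 1) was −0.82 (SE 0.59, adjusted p = 0.836 by limma). Fosb, a partner of Jun like Fos, gave 15.7, 111 and 35.2 in WT-TRAMP and 21.6, 13.7 and 23.0 in KO-TRAMP, a difference of −1.03 (SE 0.64, adjusted p = 0.808 by limma). Junb gave 164, 347 and 199 against 195, 128 and 151, and Atf3 gave 232, 379.9 and 289 against 184, 159.6 and 297. Their differences were −0.53 (SE 0.29) and −0.51 (SE 0.26), and in both genes the groups overlapped. Nr4a1 was the exception on this scale, with 21.0, 170.0 and 65.0 against 59.3, 67.6 and 67.0 and a difference of 0.06 (SE 0.63), whose 95% interval ran from −1.40 to 1.52. The KO-TRAMP values were close together, and the WT-TRAMP values lay on both sides of them. The mean of its untransformed counts was lower in KO-TRAMP (64.7 against 85.3).

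By limma's adjusted p, 0 of the 10 members passed, against 0.0129% of the 15451 genes tested in that comparison, and 0 had an unadjusted p under 0.05, against 6.64%. With edgeR 0 passed after adjustment and 0 before it (6.91% of all genes before it), and with DESeq2 0 and 2 (6.82%). No member had groups that did not overlap, against 12% of all genes. The median difference of the members was −0.31, beside −0.01 over all genes tested. With each library left out in turn, the median ran from −0.69 to −0.06. The value of −0.06 was that without library 2, which was singled out after seeing the data. Fos was then at −0.11 (SE 0.37) and Nr4a1 at 0.78 (SE 0.46). Cell type markers moved alongside. Prostate epithelial genes together took 1.43% to 1.56% of reads in KO-TRAMP against 2.38% to 3.16%. Of these 12 genes, 4 had higher and 8 lower means, with a median difference of −0.13. Sbp alone had a mean normalized count of 117814 against 261890. Smooth muscle genes took 0.0746% to 0.115% against 0.0406% to 0.0656%. The 9 seminal vesicle genes, all with higher means, took 0.000906% to 1.63% against 0.000191% to 0.000487%. The part of these markers in the values of the early genes was not tested.

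Of the 10 genes, 7 had lower means in A537T-TRAMP than in WT-TRAMP at 10 weeks, again with none past the adjusted threshold. Fos gave 52.2, 289 and 80.8 in the controls against 31.7, 42.0 and 42.4 in A537T-TRAMP. The lowest control was above all of the A537T-TRAMP values. The difference was −1.46 (SE 0.59, adjusted p = 0.600 by limma). Atf3 gave 209, 342 and 259 in WT-TRAMP and 161, 186 and 136 in A537T-TRAMP, also without overlap, a difference of −0.72 (SE 0.22, adjusted p = 0.600 by limma). Fosb gave 14.5, 100.2 and 31.3 against 4.88, 12.2 and 18.3, a difference of −1.69 (SE 0.77), and library 6 lay above WT-TRAMP library 1. Egr1 gave 147, 447 and 327 against 84.6, 157 and 227, a difference of −0.94 (SE 0.49), with overlap. Jun, the partner of Fos in AP-1, gave 174, 321 and 161 in WT-TRAMP and 205, 249.8 and 213 in A537T-TRAMP, a difference of 0.09 (SE 0.28). Dusp1 and Nr4a1 also had positive differences of mean log2 values, at 0.30 (SE 0.36) and 0.33 (SE 0.67). For Nr4a1 the mean of untransformed counts was lower in A537T-TRAMP (65.0 against 69.8), and edgeR and DESeq2 gave −0.080 and −0.094.

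The 2 members without overlap, both lower, compare with 13.4% of the 15438 genes tested, or 6.53% for lower ones alone, and these 2 also had an unadjusted p under 0.05, against 7.89% of all genes. None of the 10 passed the adjusted threshold, against 0.00648%. With edgeR 0 passed after adjustment and 3 before it (8.83% of all genes before it), and with DESeq2 0 and 4 (10.3%). The median difference of the members was −0.38, beside −0.01 over all genes. With each library left out in turn, it ran from −0.54 to −0.13. The value of −0.13 was that without library 2, which was singled out after seeing the data. Fos was then at −0.74 (SE 0.35) and Atf3 at −0.54 (SE 0.23). Smooth muscle markers moved alongside: all 8 were higher in A537T-TRAMP without overlap, and together took 0.0996% to 0.221% of reads, against 0.0393% to 0.0635% in WT-TRAMP. All 9 seminal vesicle markers were higher too, at 0.0487% to 9.05% against 0.000191% to 0.000487%. Their part in the values of the early genes was not tested.

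**Figure D2:**
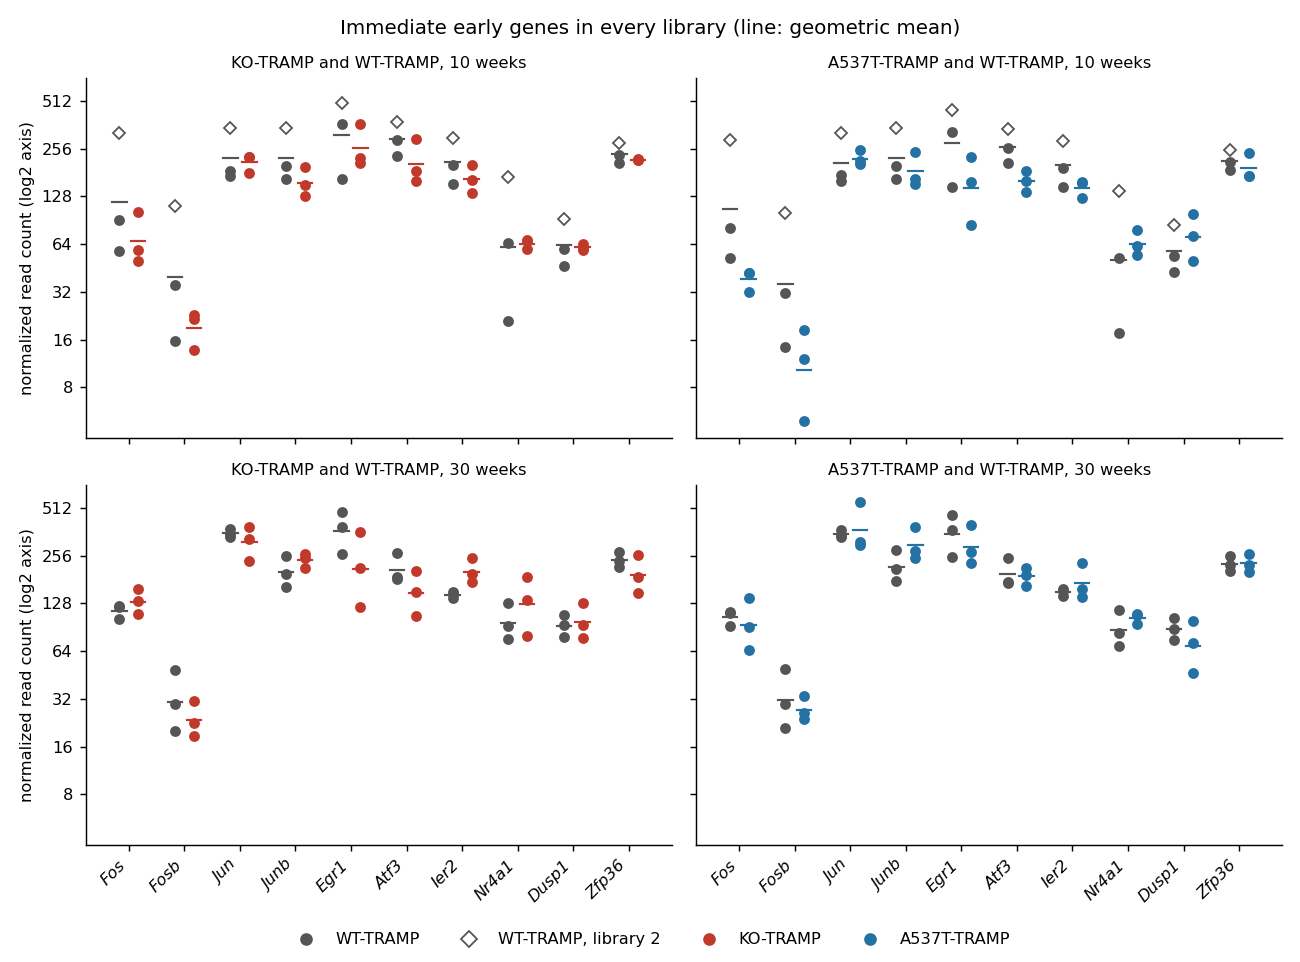
Normalized read count (y axis, log2) of each gene in the 6 libraries of each of the 4 tables; points are libraries, horizontal lines are geometric means, and the open diamond is WT-TRAMP library 2. At 10 weeks the diamond is the highest point of all 10 genes in the KO-TRAMP panel and of 9 in the A537T-TRAMP panel.

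The WT-TRAMP libraries of 10 weeks were far apart from each other in these genes. Library 2 was the highest of the 6 libraries for 10 of 10 members in the KO-TRAMP table and for 9 of 10 in the A537T-TRAMP table, where library 5 was highest for Dusp1. Over all genes tested, library 2 was the highest for 15.6% and 13.9%. Against the mean of libraries 1 and 3 in the KO-TRAMP table, library 2 was 4.36-fold higher for Fosb, 4.32-fold for Fos and 3.95-fold for Nr4a1. It was 1.91-fold higher for Jun and Junb, 1.88-fold for Egr1, 1.75-fold for Dusp1, 1.67-fold for Ier2, 1.46-fold for Atf3 and 1.25-fold for Zfp36. Of the members 3 were more than 2-fold higher, as were 2.46% of 15436 genes, and the median ratio was 1.89 over the members and 0.992 over all genes. Library 1 lay at the other end, as the lowest of the 3 for 7 of the 10 members. The residual SD of the fit had a median over the members of 0.43 log2 units at 10 weeks in the KO-TRAMP comparison against 0.23 over all genes, and of 0.48 against 0.30 in the A537T-TRAMP comparison. At 30 weeks the medians were 0.31 against 0.32 and 0.35 against 0.24.

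Other early response genes were also high in library 2. In the KO-TRAMP comparison, 18 of 32 tested were highest of all 6 libraries in it, and 27 were above the mean of libraries 1 and 3, with a median ratio of 1.27. Egr3, a relative of Egr1, was 4.77-fold higher, Klf2 3.42-fold, Ppp1r15a 2.80-fold and Ccn1 2.80-fold, but Sgk1 was at 0.453 of the other libraries. These 5 were named after their values were seen. The normalized counts of Egr3 (6.12, 22.5 and 3.30 in libraries 1 to 3) and Klf2 (4.37, 18.7 and 6.61) were low, so their ratios are less certain. None of the 10 heat shock genes was highest in library 2 of that table. Library 2 had the fewest reads, 9380174, and its skeletal muscle markers took 0.0139% of reads against 0.00140% and 0.00201% in libraries 1 and 3, with 6 of 6 markers above 0 in libraries 2 and 3 and 3 of 6 in library 1. KO-TRAMP library 9 had 0.0168%. Prostate epithelial markers took 3.16% against 2.79% and 2.38%. The part of these in the values of library 2 was not tested.

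**Figure D3:**
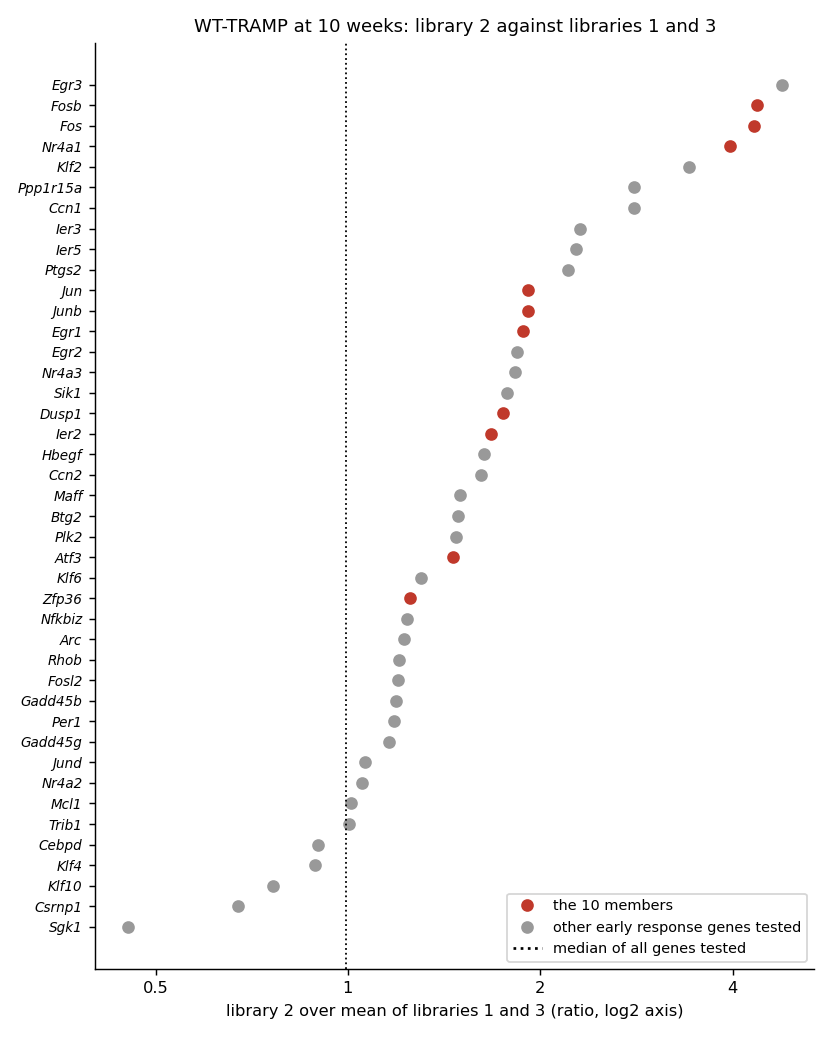
Ratio of WT-TRAMP library 2 to the mean of libraries 1 and 3 at 10 weeks (x axis, log2), for the 10 members in red and the other early response genes tested in grey; the dotted line is the median of all genes tested, 0.992. All members lie to the right of the line, from 1.25 for Zfp36 to 4.36 for Fosb.

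**Figure D4:**
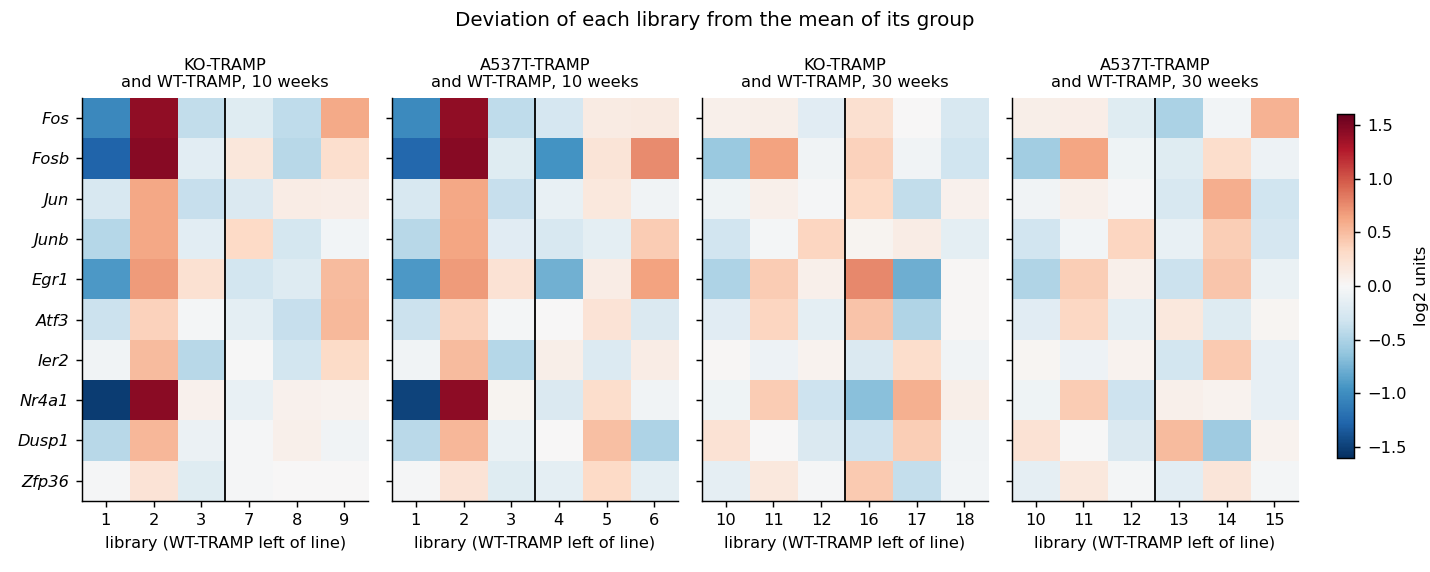
Deviation of each library from its group's mean in log2 units (colour) for the 10 genes (rows) in the 6 libraries (columns) of each of the 4 tables, with WT-TRAMP left of the line. Library 2 is above its group's mean in all 10 rows of both tables of 10 weeks, and library 1 below it in all 10.

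At 30 weeks, the members were split in KO-TRAMP, 5 with higher and 5 with lower means than in WT-TRAMP. Ier2 was the only member whose groups did not overlap, with 148, 138 and 152 in the controls against 174, 247 and 196 in KO-TRAMP. Every KO-TRAMP value was above every control, although the same controls had 10.4% to 10.6% more Ier2 reads in the A537T-TRAMP table. The difference between KO-TRAMP and WT-TRAMP was 0.48 (SE 0.18), with an unadjusted p of 0.0336 and an adjusted p of 0.358 by limma. Egr1 went the other way, with 261, 485 and 389 in WT-TRAMP and 359, 122 and 213 in KO-TRAMP, a difference of −0.79 (SE 0.43, adjusted p = 0.423 by limma), and Atf3 gave 184, 265 and 188 against 206, 107 and 151, a difference of −0.48 (SE 0.29). In both genes, library 16 lay within the controls and library 17 was the lowest of the 6. Nr4a1 gave 91.8, 129 and 76.4 against 79.2, 188 and 135, a difference of 0.38 (SE 0.37), with library 17 this time the highest.

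Of the AP-1 genes, Fos gave 122, 123 and 101 in WT-TRAMP and 157, 132 and 109.7 in KO-TRAMP, a difference of 0.19 (SE 0.20) and overlapping groups. Jun gave 338, 377 and 351 against 389.9, 238 and 326, a difference of −0.19 (SE 0.20). Fosb was at −0.37 (SE 0.43) and Junb at 0.25 (SE 0.20), while Zfp36 was at −0.31 (SE 0.23) and Dusp1 at 0.08 (SE 0.25). Library 17 was the highest of the 6 for Dusp1, Ier2, Junb and Nr4a1 and the lowest for Atf3, Egr1, Jun and Zfp36, and it was the highest for 34.3% of all genes. That library also carried the most neuroendocrine marker reads, 0.143% against 0.0000356% in library 16 and 0.0891% in library 18, and their part was not tested.

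The 0 members past the adjusted threshold compare with 0.213% of 16900 genes tested, the 1 with an unadjusted p under 0.05 with 13.5%, and the 1 without overlap with 20.2%, or 10.8% for higher ones alone. The edgeR and DESeq2 tests each gave 0 after adjustment and 1, Ier2, before it, against 15.6% and 18.4% of all genes before it. The median difference was −0.06, beside 0.01 over all genes. When limma weighted the libraries by their estimated quality, 6 of the 10 members passed, and so did 63.6% of all genes. In that fit library 18 received a weight of 170.3 and the others at most 2.15. All 6 fibroblast markers were higher in KO-TRAMP without overlap, and 3 of them (Col1a1, Col1a2 and Col3a1) passed limma's adjusted threshold. Together the 6 took 0.155% to 0.194% of reads against 0.0364% to 0.0419%. All 7 macrophage markers had higher means, 6 of them without overlap, and C1qb passed the threshold. The part of these markers in the values of the early genes was not tested.

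In A537T-TRAMP at 30 weeks the members were again divided, 5 higher and 5 lower, and all 10 had overlapping groups. The largest mean difference was that of Junb, with 177, 213 and 276 in the controls against 273, 389.9 and 247 in A537T-TRAMP, at 0.44 (SE 0.23, adjusted p = 0.721 by limma). Library 14 was the highest of the 6, and the others overlapped. Jun gave 335, 371 and 345 against 312, 560.4 and 299, where library 14 again stood above the rest, a difference of 0.10 (SE 0.24). Fos gave 112, 113 and 91.7 against 65.5, 90.6 and 139, a difference of −0.16 (SE 0.28). Its 95% interval ran from −0.82 to 0.50. Dusp1 gave 104, 88.8 and 75.7 against 99.1, 46.5 and 71.8, a difference of −0.36 (SE 0.30), with its lowest value in library 14. Egr1 was at −0.27 (SE 0.28), Nr4a1 at 0.25 (SE 0.22), Ier2 at 0.19 (SE 0.20), Fosb at −0.19 (SE 0.37), Atf3 at −0.04 (SE 0.19) and Zfp36 at 0.01 (SE 0.15).

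With limma 0 members passed after adjustment, against 0% of 16261 genes, and 0 had an unadjusted p under 0.05, against 7.21%. With edgeR and with DESeq2 the counts were 0 and 0 as well, against 8.50% and 8.24% of all genes before adjustment. The 0 members without overlap compare with 13.4% of all genes. The median difference was −0.02, beside 0.00025 over all genes.

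**Figure D5:**
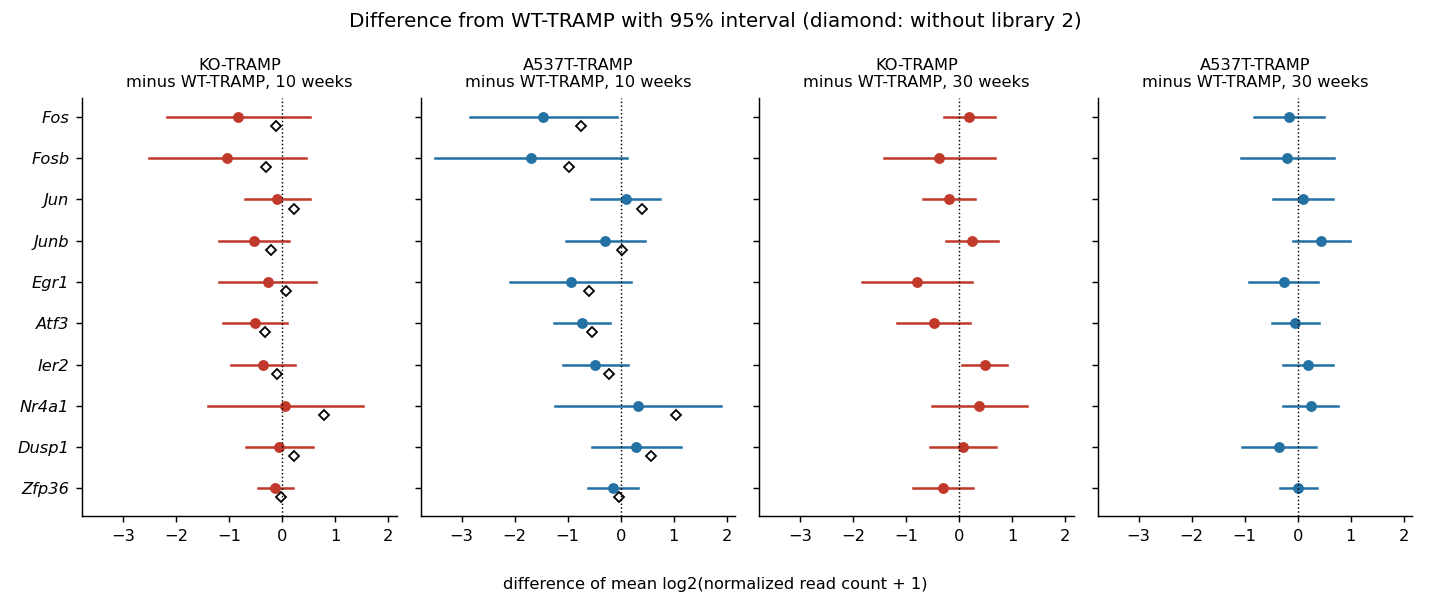
Difference from WT-TRAMP in mean log2(normalized read count + 1) (x axis) with its 95% interval for each gene in the 4 comparisons; open diamonds are the values without WT-TRAMP library 2. At 10 weeks the diamonds of Fos, Fosb and Atf3 lie nearer 0 than the filled points and those of Nr4a1 farther from it, and at 30 weeks the points lie on both sides of 0.

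The change of each line's difference between 10 and 30 weeks was tested directly, and no member passed. For KO-TRAMP the largest was that of Fos, 1.01 (SE 0.72, adjusted p = 0.534 by limma). The smallest p was that of Ier2, 0.83 (SE 0.34, unadjusted p = 0.0318, adjusted p = 0.348 by limma). For A537T-TRAMP, the change of Fosb had a 95% interval from −0.50 to 3.50, and those of Fos and Atf3 were 1.29 (SE 0.71) and 0.68 (SE 0.30). Atf3 had the smallest p, 0.0451 before and 0.721 after adjustment by limma. Over the members the median change was 0.22 for KO-TRAMP and 0.67 for A537T-TRAMP, and without library 2 these were −0.15 and 0.37. With each library left out in turn, they ran from −0.15 to 0.61 and from 0.37 to 0.77. For each line 1 of 10 members had an unadjusted p under 0.05, against 13.1% of 16431 genes for KO-TRAMP and 6.36% of 15941 for A537T-TRAMP, and 0 had an adjusted one, against 0% in both.

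Since the tables of each age were normalized separately, levels at 10 and 30 weeks can only be set side by side, in RPM (reads scaled to the total of the library). Jun was above its 10-week range in all 3 libraries of 30 weeks in every line, at 30.7 ± 1.31 (SD, n = 3) against 20.1 ± 8.02 in WT-TRAMP, 28.5 ± 5.99 against 18.9 ± 2.31 in KO-TRAMP and 34.4 ± 12.6 against 19.7 ± 0.176 in A537T-TRAMP. Fos and Nr4a1 did so in both mutant lines, and in WT-TRAMP when library 2 was left out. Fos was at 12.0 ± 1.78 against 6.30 ± 2.56 in KO-TRAMP and at 8.73 ± 3.51 against 3.43 ± 0.434 in A537T-TRAMP, whereas WT-TRAMP had 9.96 ± 1.07 against 13.3 ± 12.2. In all, 5 members of KO-TRAMP, 4 of A537T-TRAMP and 1 of WT-TRAMP were above their 10-week range, against 17.6%, 11.3% and 21.3% of the genes with a mean of at least 10 reads. Without library 2, which was left out after seeing the data, 4 members (Jun, Fos, Nr4a1 and Dusp1) were above it in WT-TRAMP, against 26.3% of genes. The difference between lines was not tested on this scale. Ier2 was below it in WT-TRAMP, at 12.6 ± 0.712 against 18.8 ± 6.25, as were 6.21% of genes, but in the A537T-TRAMP tables the same libraries overlapped between the ages, with the highest value of 30 weeks, 14.4, above the lowest of 10 weeks, 13.7. In KO-TRAMP and A537T-TRAMP 0 members were below it, against 7.67% and 0.921%. Over the same genes, the median ratio of 30 to 10 weeks was 1.09 in WT-TRAMP, 1.12 in KO-TRAMP and 1.11 in A537T-TRAMP. In the KO-TRAMP tables, prostate epithelial markers took 2.38% to 3.16% of WT-TRAMP reads at 10 weeks and 0.412% to 0.468% at 30 weeks. In KO-TRAMP they took 1.43% to 1.56% and 0.367% to 0.4002%. In A537T-TRAMP the ages overlapped, at 0.275% to 3.50% and 0.436% to 0.4899%. Their part in the levels of the early genes was not tested.

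The wider pathway gave no gene past the adjusted threshold in any of the 4 comparisons. This held for the 38 other early response genes, of which 31 to 35 were tested, for 12 feedback genes of ERK signalling, for 19 kinases and transcription factors upstream, for 10 partners and repressors and for 10 heat shock genes. Among the other early response genes, the smallest p in A537T-TRAMP at 10 weeks were those of Ccn1, a secreted matrix protein, with 75.5, 271 and 117 in WT-TRAMP against 47.2, 55.3 and 55.0, a difference of −1.34 (SE 0.44), and Egr2, a relative of Egr1, with 21.7, 46.1 and 28.3 against 6.51, 3.32 and 17.2, a difference of −1.91 (SE 0.63). Neither pair of groups overlapped, and each had an adjusted p of 0.600 by limma. Yet 18 of the 31 genes tested had higher means in A537T-TRAMP and 13 lower, and their median was 0.15. For KO-TRAMP mice of that age the split was 17 to 15, and Per1, a clock gene, was at −0.69 (SE 0.23) and Trib1, a pseudokinase, at 0.45 (SE 0.18).

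At 30 weeks Klf4, an epithelial transcription factor, had 89.5, 91.2 and 88.9 in WT-TRAMP against 124, 141 and 135 in KO-TRAMP, a difference of 0.56 (SE 0.15). In the A537T-TRAMP table it had 87.5, 87.9 and 85.3 against 129, 124 and 118, a difference of 0.50 (SE 0.14). Both comparisons use the same controls, and the adjusted p was 0.323 and 0.576 by limma. Ccn2 was at 0.80 (SE 0.22) in KO-TRAMP and 0.46 (SE 0.17) in A537T-TRAMP, and Sgk1 at −1.59 (SE 0.49) in KO-TRAMP. Of the other early response genes tested at 30 weeks, 23 had higher and 12 lower means in KO-TRAMP, and 21 and 12 in A537T-TRAMP. By limma, 6 of 35 had an unadjusted p under 0.05 in KO-TRAMP (3 higher, 3 lower), against 13.5% of all genes. In A537T-TRAMP 5 of 33 did, all higher, against 7.21%. Dusp4, which like Dusp1 removes phosphate from MAP kinases, had 2.41, 3.45 and 1.01 in WT-TRAMP at 10 weeks against 7.32, 475 and 33.3 in A537T-TRAMP, and it reached the minimum mean only through the latter. Library 5, in which 9 of the 11 feedback genes tested (Dusp4 included) and 28.0% of all genes were highest of the 6, was also that with 9.05% seminal vesicle reads, and their part was not tested.

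Heat shock genes, which encode chaperones induced by unfolded protein, were measured beside them. At 10 weeks Hspa1a had 33.2, 36.2 and 42.9 in WT-TRAMP against 79.1, 96.0 and 65.2 in KO-TRAMP, a difference of 1.07 (SE 0.24), and beside A537T-TRAMP it had 32.9, 35.7 and 41.4 against 91.2, 242 and 103, a difference of 1.82 (SE 0.38). The 3 controls were alike here, library 2 included, and all mutant values lay above them. The adjusted p was 0.659 and 0.600 by limma. Hspa1b, also on the list, overlapped between the groups in KO-TRAMP at 10 weeks, with 132, 115 and 162 in WT-TRAMP against 147, 166 and 137. In A537T-TRAMP at 10 weeks Hspa1b was higher without overlap, a difference of 1.35 (SE 0.44). In A537T-TRAMP at 30 weeks all 10 heat shock genes had higher means, with a median of 0.43 and 7 of them without overlap, against 13.4% of all genes. In A537T-TRAMP at 10 weeks 6 were higher and 4 lower (median 0.06), with 2 without overlap, against 13.4% of all genes. In KO-TRAMP at 10 weeks 9 were higher and 1 lower (0.16), with 2 without overlap, against 12%. In KO-TRAMP at 30 weeks 7 were higher and 3 lower (0.31), with 6 without overlap, against 20.2%. Hspa8, the constitutive chaperone, had 11410.2 to 12239 in WT-TRAMP and 16592 to 16887 in A537T-TRAMP at 30 weeks. The difference was 0.49 (SE 0.08, adjusted p = 0.252 by limma).

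The genes whose pattern was most like that of the members were sought over 11402 genes, by the correlation of log2 values, centred within each group and table, with the members' mean over 24 columns. The WT-TRAMP libraries occur in 2 columns each, and the columns share depth and composition. Ccn1 had r = 0.92, as did the member Fos, and Nr4a1 had 0.86, while the median over all genes was −0.0047. Without library 2 the value of Ccn1 was 0.87. Snora7a, a small nucleolar RNA, followed with 0.85, then Ypel3 with 0.85, Pex3, a peroxisome assembly factor, with 0.83, and Mfsd11, a membrane transporter-like protein, with 0.83. Without library 2 these fell to between 0.63 and 0.78. Of the members, Egr1 reached 0.80, Jun 0.77, Junb 0.76, Atf3 0.68, Ier2 0.55, Zfp36 0.54 and Dusp1 0.46. Each of these members is itself part of the mean it was compared with. Fosb was part of that mean too. It was not among the genes compared, which had a mean normalized count of at least 50 in every table.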

How the data were processed

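The authors trimmed reads with Trim Galore 0.4.1 and cutadapt 1.18, aligned them with STAR 2.7.3a to GRCm38 and estimated stranded gene counts with Salmon. They divided these by 1 DESeq2 1.26 size factor per library, separately in each of 4 tables of 6 libraries, and the values of this signal were deposited. WT-TRAMP columns were recognised as those present in both tables of an age, and the mutant group from the table's name. Whole reads came out for 100% of values (tolerance 0.01). The deposited tables of the authors' own comparisons (shrunken fold changes and s-values) were not used.

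Values were tested as log2(value + 1) with limma 3.58.1 in R 4.3.3 (moderated, two-sided, mean of at least 10 over the 6 libraries, Benjamini-Hochberg adjustment over all genes tested, threshold 0.05). The change between ages was fitted over both tables of a line. Alternatives were edgeR 4.0.16 and DESeq2 1.42.0 on the recovered reads, pseudocounts of 0.5 and 10, no minimum and a minimum of 50, reads per library total, array weights and leaving out each library. In simulated data, limma called 63.3% (KO-TRAMP, 10 weeks), 58.2% (A537T-TRAMP, 10 weeks), 48.5% (KO-TRAMP, 30 weeks) and 52.5% (A537T-TRAMP, 30 weeks) of 97 to 99 genes changed by 1 on the log2 scale. Every simulated gene had the same dispersion, so these shares do not say how often a changed member would be called. In KO-TRAMP at 10 weeks, the members' median residual SD was 0.43 against 0.23 over all genes. P-values set the difference of the groups against the spread between the mice within them, which limma moderates with that of all genes tested. Both comparisons of an age use the same WT-TRAMP libraries. The members and lists were chosen with earlier results of these data known. Named were all members, from each other list genes past the threshold or up to 3 with the smallest unadjusted p under 0.05, of which the text gives some, and the 5 genes most like the members. Symbols were found for 55107 of 55469 rows.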

Additional observations from a re-analysis of the deposited data

How the results depend on the processing

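No paired analysis was possible because the columns carry no replicate numbers. At 10 weeks and in A537T-TRAMP at 30 weeks, 0 members passed under any setting, and likewise for the change between ages. In KO-TRAMP at 30 weeks, 6 members passed with array weights and 4 with array weights estimated gene by gene, which were added after seeing the data, but then 63.6% and 48.8% of all genes passed too. The number of all genes past the threshold moved far more: from 2 with limma to 0 with edgeR and 83 with DESeq2 (KO-TRAMP, 10 weeks), from 1 to 0 and 148 (A537T-TRAMP, 10 weeks), from 36 to 15 and 805 (KO-TRAMP, 30 weeks), and from 0 to 166 with DESeq2 (A537T-TRAMP, 30 weeks). Leaving out 1 library at a time gave 1 to 9, 0 to 65, 0 to 3064 and 0 to 145 such genes in the same order, and 0 to 1944 and 0 to 20 for the change between ages in KO-TRAMP and A537T-TRAMP, where all libraries gave 0. Array weights gave 4 at 10 weeks and 3388 at 30 weeks in A537T-TRAMP. Some members changed sign, and the cause was not tested. For KO-TRAMP at 10 weeks, Nr4a1 was at −0.00420 with a pseudocount of 10, −0.33 with array weights, −0.28 gene by gene, −0.38 with edgeR and −0.39 with DESeq2, and Dusp1 at 0.00886 per library total. For A537T-TRAMP at 10 weeks, array weights gave −0.10 for Jun, −0.14 for Dusp1 and −0.068 for Nr4a1, gene by gene −0.061, −0.039 and −0.013, and Nr4a1 was at −0.080 with edgeR and −0.094 with DESeq2. For KO-TRAMP at 30 weeks, Junb was at −0.11 with array weights and −0.085 gene by gene. For A537T-TRAMP at 30 weeks, Zfp36 was at −0.052 per library total, −0.000135 with array weights, −0.012 gene by gene and −0.000439 with DESeq2, array weights gave 0.39 for Fos, −0.15 for Jun, −0.026 for Junb and 0.11 for Atf3, and gene by gene 0.20, −0.10 and 0.10 for Fos, Jun and Atf3. The change of Nr4a1 in A537T-TRAMP was 0.0028 with a pseudocount of 10. With each library left out in turn, KO-TRAMP at 10 weeks ranged from −0.27 to 0.22 for Jun, −0.73 to 0.067 for Egr1, −0.27 to 0.22 for Dusp1 and −0.70 to 0.78 for Nr4a1. A537T-TRAMP at 10 weeks ranged from −0.093 to 0.41 for Jun, −0.51 to 0.026 for Junb and −0.41 to 1.05 for Nr4a1. KO-TRAMP at 30 weeks ranged from −0.35 to 0.0058 for Jun and −0.12 to 0.24 for Dusp1. A537T-TRAMP at 30 weeks ranged from −0.44 to 0.093 for Fos, −0.47 to 0.12 for Fosb, −0.20 to 0.26 for Jun, −0.13 to 0.12 for Atf3, −0.019 to 0.34 for Ier2 and −0.092 to 0.095 for Zfp36. The change between ages in KO-TRAMP ranged from −0.070 to 1.30 for Fosb, −0.41 to 0.093 for Jun, −0.20 to 0.29 for Atf3, −0.14 to 0.35 for Dusp1, −0.40 to 1.08 for Nr4a1 and −0.39 to 0.0067 for Zfp36, and in A537T-TRAMP from −0.31 to 0.19 for Jun and −0.80 to 0.66 for Nr4a1. The median over the members ranged from −0.69 to −0.06 (KO-TRAMP, 10 weeks), −0.54 to −0.13 (A537T-TRAMP, 10 weeks), −0.14 to 0.08 (KO-TRAMP, 30 weeks) and −0.09 to 0.12 (A537T-TRAMP, 30 weeks) over all settings. With 3 libraries a group, Fosb had as few as 6 reads in a library, which limits its precision.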
